A study of Mus musculus with 6 samples.

Results

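The bone morphogenetic protein (BMP) and transforming growth factor beta (TGF-beta) pathway genes examined here are 40 genes chosen by name: ligands, receptors, Smads, extracellular antagonists and the Id target genes. Each of the 40 names matched 1 row of a count table with 24421 gene entries and 1146 transposable element entries. The table holds bulk RNA sequencing of mouse iPSCs, that is, induced pluripotent stem cells, made by reprogramming somatic cells until they resemble embryonic stem cells. It has 3 libraries of cells whose serum response factor gene was deleted (SRFΔ/Δ, called SRF KO) and 3 of cells with the floxed allele intact (SRFf/f, called WT). Both kinds of cell were kept in serum-containing medium, and the labels name no other agent. Whether replicates were independent clones or cultures, how and when the allele was deleted and whether feeder cells were present are not given in the sources used here, and p-values measure only the spread between these libraries, which may be technical.

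BMPs and TGF-betas are secreted dimers of 1 protein superfamily that assemble type I and type II serine/threonine kinase receptors. Activated BMP receptors phosphorylate Smad1 and Smad5, whereas TGF-beta and activin receptors phosphorylate Smad2 and Smad3. Both kinds of Smad join Smad4 in the nucleus, and Smad6 and Smad7 inhibit the pathway. In mouse embryonic stem cells, BMP signalling is known to raise Id genes and to help to maintain self-renewal together with leukaemia inhibitory factor. Serum response factor (SRF) is a transcription factor of cytoskeletal and immediate-early genes.

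Values with ± are means and SDs over the libraries of a group (n = 3). Total counts were between 26321602 and 36680156 per library. Srf itself was at 4.20, 3.17 and 4.53 counts per library total scaled with TMM factors (CPM) in SRF KO and at 36.6, 29.7 and 37.2 CPM in WT, so that the targeted gene and the labels pointed the same way in every library. WT replicate 2 stood apart from the other WT libraries on the second principal component, at -15.0 against 5.58 and 10.3. Pluripotency markers summed to between 4844 and 4883 CPM in SRF KO and between 5839.6 and 6451 CPM in WT over 12 genes, all above 3 counts in every WT library. By the test given below, 7 of the 12 were lower, 2 were higher and 3 did not pass, where 42.4% of all genes passed. Extraembryonic endoderm markers summed to between 3182 and 3388 CPM in SRF KO and between 428 and 454 CPM in WT over 15 genes, of which 14 were above 3 counts in every WT library. Fibroblast markers summed to between 1015 and 1217 CPM in SRF KO and between 506 and 577 CPM in WT over 16 genes, and all 16 were above 3 counts in every WT library. No gene of these 3 lists was at 0 in all libraries. The deposited libraries therefore differed in the markers of several cell types as well as in the pathway genes, and in bulk RNA a change in the number of cells of a type cannot be told apart from a change in RNA per cell.

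SRF binds a DNA element called the CArG box, and Smad complexes of the BMP branch bind GC-rich elements, so promoter windows were searched for both. RefSeq windows of the GRCm38.p6 assembly, each 250 bases before a gene start, matched 28 of the 40 genes, with 34 windows in all. Genes without a window, which were not searched, were Bmp2, Bmp7, Tgfb3, Tgfbr3, Bambi, Fst, Nog, Bmp1, Smad2, Smad4, Smad7 and Id1. Among them are most of the members given below as changed at least 2-fold. The CArG box was found on either strand in 0 of the 34 windows, against 1.48% of 32536 distinct windows of the same length. The BMP-type Smad element GGCGCC, which reads the same on both strands, was found in 8 of the 34 windows (23.5%), each of a different gene, against 9.65% of all windows. This element holds only G and C, and the windows were not matched for their share of these bases. Of the 8 genes, Bmpr2, Grem1 and Tgfbr1 were higher in SRF KO by the test given below and Id2 and Id4 lower. Smad5, Bmpr1a and Chrd did not pass. Of all members tested 64.1% passed that test, against 42.4% of all genes tested. Tgfbr1 and Id4 did not pass in several of the other fits given below. The Smad element GTCTAGAC, also a palindrome, was found in 0 of the 34 windows, against 0.169% of all windows. The short Smad element CAGACA was found on either strand in 6 of the 34 windows (17.6%), against 17.0% of all windows. A missing match says only that these letters are not in the window. The following 6 windows belong to genes of different roles whose level changed and hold no base of an annotated exon, with GGCGCC in capitals where present. They were picked after their values were seen. They are Bmp4 (chr14:46390670-46390919, minus strand), Inhba (chr13:16011601-16011850, plus strand), Grem1 (chr2:113758649-113758898, minus strand), Tgfbr2 (chr9:116175364-116175613, minus strand), Smad6 (chr9:64022060-64022309, minus strand) and Id4 (chr13:48260866-48261115, plus strand).
Bmp4: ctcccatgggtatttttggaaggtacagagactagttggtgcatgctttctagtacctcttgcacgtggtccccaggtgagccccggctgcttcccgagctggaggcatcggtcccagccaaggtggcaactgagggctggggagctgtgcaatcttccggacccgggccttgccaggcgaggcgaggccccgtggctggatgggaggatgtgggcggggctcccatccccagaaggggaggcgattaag
Inhba: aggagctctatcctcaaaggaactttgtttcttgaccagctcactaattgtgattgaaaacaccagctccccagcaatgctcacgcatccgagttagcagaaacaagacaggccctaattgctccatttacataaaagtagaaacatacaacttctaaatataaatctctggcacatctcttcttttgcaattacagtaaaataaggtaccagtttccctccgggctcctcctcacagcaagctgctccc
Grem1: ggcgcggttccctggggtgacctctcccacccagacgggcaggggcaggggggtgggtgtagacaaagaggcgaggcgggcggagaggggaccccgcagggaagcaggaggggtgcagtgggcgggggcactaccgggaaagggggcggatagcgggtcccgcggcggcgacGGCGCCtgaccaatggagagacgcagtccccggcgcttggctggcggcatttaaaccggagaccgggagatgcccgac
Tgfbr2: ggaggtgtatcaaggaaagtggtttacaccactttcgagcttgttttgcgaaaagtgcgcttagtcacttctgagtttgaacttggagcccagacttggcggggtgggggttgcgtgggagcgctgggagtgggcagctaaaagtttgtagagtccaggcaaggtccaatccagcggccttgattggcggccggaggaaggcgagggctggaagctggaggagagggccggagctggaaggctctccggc
Smad6: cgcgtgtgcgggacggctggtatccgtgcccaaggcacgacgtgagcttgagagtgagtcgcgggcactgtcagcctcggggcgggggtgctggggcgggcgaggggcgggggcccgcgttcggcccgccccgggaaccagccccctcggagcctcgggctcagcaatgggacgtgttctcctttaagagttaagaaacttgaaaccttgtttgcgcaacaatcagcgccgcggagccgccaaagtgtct
Id4: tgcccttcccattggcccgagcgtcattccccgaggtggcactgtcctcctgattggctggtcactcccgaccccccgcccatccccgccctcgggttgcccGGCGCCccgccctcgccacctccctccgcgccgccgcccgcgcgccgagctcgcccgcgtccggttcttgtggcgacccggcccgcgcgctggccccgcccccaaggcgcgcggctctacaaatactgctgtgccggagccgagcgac
The element began 78 bases before the start in Grem1, which rose, and 148 bases before it in Id4, which fell. The Inhba window had 43.2% G and C and 3 CpG dinucleotides, while that of Grem1, which rose by a similar factor, had 72.0% and 24.

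To determine how the pathway genes differed without SRF, all entries were fitted together and the members read from that fit. Of the 40 genes, 39 passed the filter on low counts. At an adjusted p under 0.05 by edgeR's quasi-likelihood test, 20 were higher and 5 were lower in SRF KO, and 14 did not pass. These 25 are 64.1% of the members tested, where 42.4% of all 14778 genes tested were called, 21.2% higher and 21.3% lower. The members' median log2 fold change was 0.19 against -0.01 for all genes, and their median absolute log2 fold change was 0.38 against 0.21. For 32 members (82.1%) the groups had no overlap between their 3 libraries each, against 52.7% of all genes. A change of at least 2-fold was called for 11 members that were higher, against 5.53% of all genes, and for 2 that were lower, against 1.76% of all genes. The secreted and membrane proteins held all 10 of the 2-fold rises other than Id1, and among these 10 is Nog, whose WT counts alone would not have passed the filter.

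**Figure D1:**
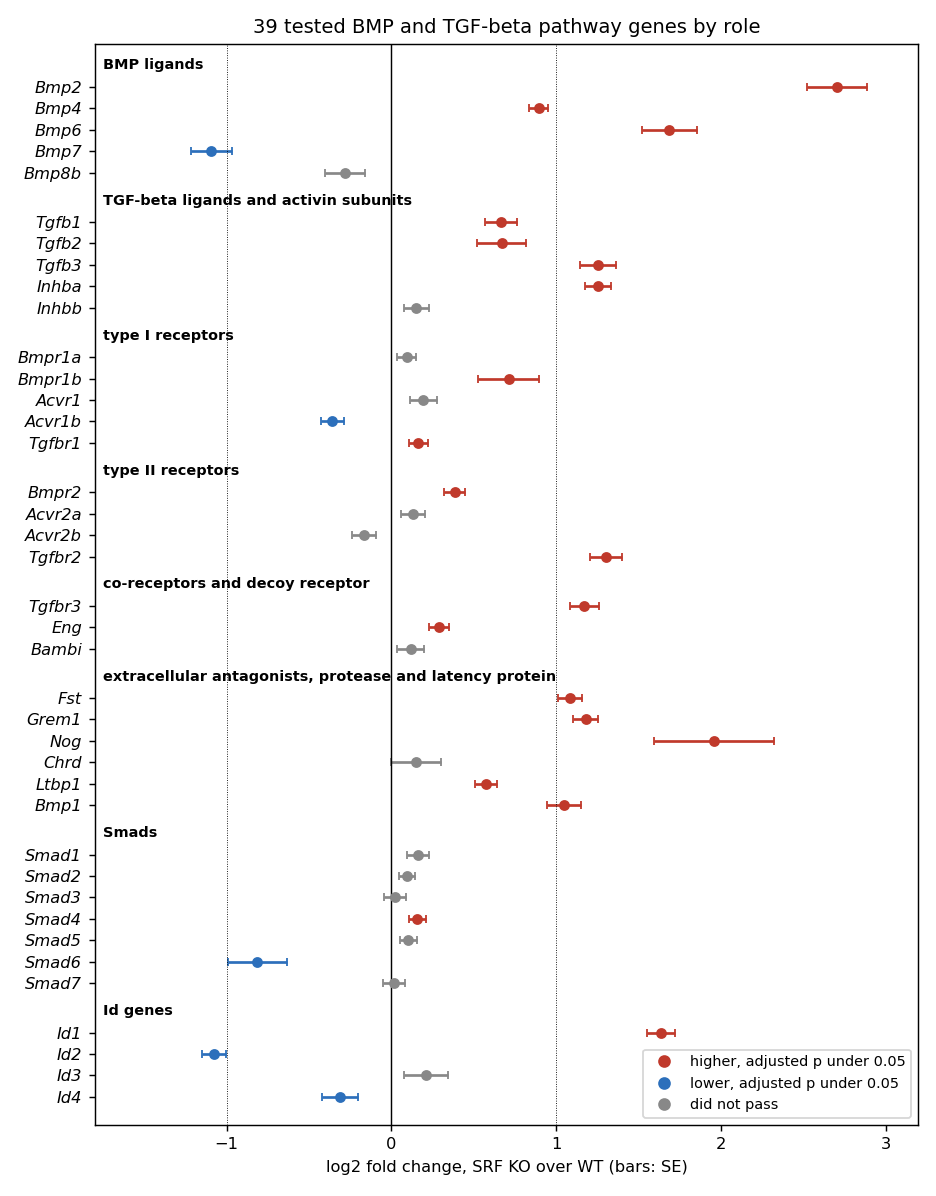
Log2 fold change of SRF KO over WT (x axis, bars are SE) for the 39 members tested, grouped by role, with dotted lines at a 2-fold change. Bmp2 at 2.71 lies farthest to the right and Bmp7 at -1.09 farthest to the left, while 6 of the 7 Smads lie between 0.02 and 0.16.

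Among BMP ligands, Bmp2, Bmp4 and Bmp6 rose, Bmp7 fell and Bmp8b did not pass the test. Bmp2 (chr2:133552159-133562885, GRCm38, plus strand), an inducer of mesoderm and bone, was at 3.27, 3.21 and 2.90 CPM in SRF KO replicates 1 to 3 and at 0.442, 0.505 and 0.488 CPM in WT replicates 1 to 3. All SRF KO libraries were far above all WT libraries, with a log2 fold change of 2.71 (standard error, SE, 0.18; edgeR adjusted p 5.13e-07), which is 6.53-fold. Its WT values rest on 16, 13 and 14 counts. Bmp6, a relative of Bmp5 and Bmp7, was at 5.05, 4.99 and 5.22 CPM in SRF KO and at 1.93, 1.09 and 1.60 CPM in WT. The groups did not overlap, WT replicate 2 was the lowest library, and the log2 fold change was 1.69 (SE 0.17, edgeR adjusted p 1.18e-05). Bmp4 (chr14:46383520-46390669, minus strand), the ligand that embryonic epiblast and extraembryonic ectoderm use to induce mesoderm and germ cells, was at 53.3, 52.2 and 54.5 CPM in SRF KO and at 29.5, 27.4 and 29.0 CPM in WT. Its log2 fold change was 0.90 (SE 0.06, edgeR adjusted p 3.38e-07), and the libraries of each group lay close together.

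Bmp7 (chr2:172868012-172940321, minus strand), a ligand needed for kidney and eye development, went the other way. It was at 2.97, 2.72 and 3.53 CPM in SRF KO and at 6.16, 6.49 and 7.11 CPM in WT, without overlap. The log2 fold change was -1.09 (SE 0.13, edgeR adjusted p 3.63e-05). Within each library, the ratio of Bmp2 to Bmp7 counts, which no library scaling affects, was 1.10, 1.18 and 0.824 in SRF KO and 0.0718, 0.0778 and 0.0686 in WT. Bmp8b was at 3.66 ± 0.334 CPM in SRF KO against 4.45 ± 0.249 CPM in WT, a log2 fold change of -0.28 with an edgeR adjusted p of 0.0817. Bmp8b has a close paralog, Bmp8a, with a log2 difference of 0.83 (SE 0.19, edgeR adjusted p 0.00475), and since the counting rule is not given in the sources used here, reads of this pair may have been divided between them. Bmp5 had 0, 0 and 4 counts in SRF KO and 1, 0 and 2 counts in WT and was not tested.

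Per kb of exon (GENCODE M21), Bmp4 was the most abundant of the BMP ligands in both groups, at 23.7 ± 0.508 CPM per kb in SRF KO against 12.7 ± 0.478 CPM per kb in WT. It held 85.9% ± 0.307 of the summed length-scaled BMP ligand level in SRF KO against 79.3% ± 0.643 in WT. Bmp7 was second in WT with 10.2% ± 0.800 of the sum and had 2.76% ± 0.302 in SRF KO, where Bmp2 had 3.19% ± 0.266, Bmp8b 3.41% ± 0.260 and Bmp6 4.72% ± 0.0107. Neither Bmp7 and Bmp2 nor Bmp2 and Bmp8b differed beyond their SDs in SRF KO, and in SRF KO replicate 3 Bmp7 was above Bmp2. The large fold change of Bmp2 thus concerns a ligand of low level, and the largest gain in length-scaled level was that of Bmp4.

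**Figure D2:**
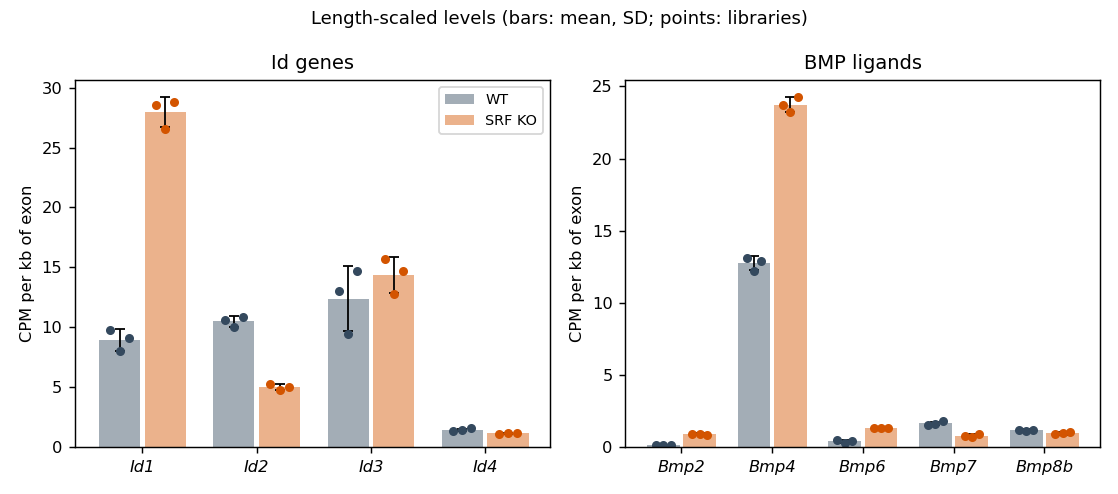
Length-scaled level (CPM per kb of exon, y axis) of the Id genes (left) and of 5 BMP ligands (right) in WT and SRF KO; bars are means, error bars SD and points the 3 libraries. Id1 goes from 8.95 to 27.9 CPM per kb and becomes the highest Id gene, and Bmp4 exceeds the other ligands in both groups.

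Of the 5 TGF-beta ligands and activin subunits, 4 rose and 0 fell, where 21.2% of all genes were higher and 21.3% lower. Tgfb3 (chr12:86056745-86079041, minus strand), which acts in palate fusion and wound repair, was at 11.3, 10.2 and 12.7 CPM in SRF KO and at 4.89, 4.28 and 5.16 CPM in WT. All SRF KO libraries were higher, by a log2 difference of 1.25 (SE 0.11, edgeR adjusted p 4.78e-06). Inhba (chr13:16011851-16031621, plus strand), which encodes the beta A subunit of activin A, was at 18.9, 19.0 and 18.5 CPM in SRF KO and at 7.35, 8.32 and 8.05 CPM in WT. Its log2 fold change was also 1.25 (SE 0.08, edgeR adjusted p 3.12e-07). The related beta B subunit gene Inhbb was at 22.5 ± 1.2 CPM in SRF KO against 20.2 ± 1.57 CPM in WT, with a log2 fold change of 0.15 that did not pass (edgeR adjusted p 0.140). Within libraries there were 0.838 ± 0.0395 Inhba counts per Inhbb count in SRF KO against 0.394 ± 0.0519 in WT. Tgfb1 and Tgfb2 rose by 0.67 and 0.67 on the log2 scale (edgeR adjusted p 0.000192 and 0.00387). Tgfb1, a growth inhibitor and matrix inducer in many cells, was at 17.7 ± 0.963 CPM in SRF KO against 11.2 ± 1.41 CPM in WT.

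Of the 5 type I receptors 2 rose and 1 fell, of the 4 type II receptors 2 rose, and of the 3 co-receptors and decoy receptor 2 rose, where 42.4% of all genes were called. Tgfbr2 (chr9:116084293-116175360, minus strand), the type II receptor that binds TGF-beta ligands, was at 16.5, 14.5 and 17.7 CPM in SRF KO and at 6.30, 6.45 and 7.08 CPM in WT. The groups did not overlap, with a log2 difference of 1.30 (SE 0.10, edgeR adjusted p 1.24e-06). Tgfbr3 (chr5:107106570-107289629, minus strand), betaglycan, a co-receptor that presents TGF-beta to Tgfbr2, was at 20.3, 18.5 and 22.1 CPM in SRF KO and at 8.67, 8.67 and 9.69 CPM in WT. It rose by 1.17 on the log2 scale (SE 0.09, edgeR adjusted p 1.41e-06). Tgfbr1, their type I partner, was at 39.1 ± 1.54 CPM in SRF KO against 34.8 ± 0.615 CPM in WT, a log2 fold change of 0.16 (edgeR adjusted p 0.0397). This call of Tgfbr1 was lost without any of SRF KO replicates 1 to 3, WT replicate 1 or WT replicate 3 (log2 fold change between 0.14 and 0.19, edgeR adjusted p up to 0.128) and at an adjusted p of 0.0587 both under DESeq2 (0.17) and with no filter on low counts (0.17). Per Tgfbr1 count there were 0.417 ± 0.0526 Tgfbr2 counts in SRF KO against 0.190 ± 0.0141 in WT.

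Of the BMP and activin receptors, Bmpr2, the BMP type II receptor, was at 79.7, 87.0 and 80.0 CPM in SRF KO and at 59.5, 67.6 and 62.1 CPM in WT, without overlap. It rose by 0.38 on the log2 scale (SE 0.06, edgeR adjusted p 0.000408). Bmpr1b, a BMP type I receptor, was low, at 1.67, 1.62 and 2.0 CPM in SRF KO against 1.16, 1.13 and 0.941 CPM in WT, with a log2 difference of 0.71 (SE 0.18, edgeR adjusted p 0.00856). Acvr1b, the activin and Nodal type I receptor ALK4, was the 1 receptor that fell. It was at 35.4, 37.7 and 34.2 CPM in SRF KO and at 47.9, 41.4 and 48.1 CPM in WT, with WT replicate 2 nearest to the SRF KO values (log2 fold change -0.36, SE 0.07, edgeR adjusted p 0.00182). Eng, endoglin, a co-receptor for BMPs and TGF-betas best known from endothelium, was at 38.7, 38.4 and 38.3 CPM in SRF KO and at 32.0, 29.6 and 32.8 CPM in WT. It rose by 0.29 on the log2 scale (SE 0.06, edgeR adjusted p 0.00264). Bmpr1a, Acvr1, Acvr2a, Acvr2b and the decoy receptor Bambi did not pass, with log2 fold changes between -0.17 and 0.19.

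The order of the type I receptors per kb of exon was Bmpr1a, Acvr1b, Tgfbr1, Acvr1 and Bmpr1b in both groups. In WT they were at 17.0 ± 1.11, 10.4 ± 0.861, 5.33 ± 0.0940, 2.31 ± 0.0763 and 0.181 ± 0.0198 CPM per kb, so that no neighbours in the order lay within their SDs. Summed over the type I receptors, the length-scaled level was 35.1 ± 0.800 CPM per kb in SRF KO against 35.2 ± 0.297 in WT, closer than either SD. The main BMP type I receptor of these cells by RNA, Bmpr1a, was at 18.1 ± 0.402 CPM per kb in SRF KO.

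Of the 6 extracellular regulators, 5 rose and 0 fell, where 21.2% of all genes were higher and 21.3% lower. The 5 include Nog, which passed the filter on low counts only through the SRF KO libraries. Grem1 (chr2:113746164-113758646, minus strand), gremlin, an antagonist that binds BMP2, BMP4 and BMP7, was at 29.6, 31.4 and 33.8 CPM in SRF KO and at 13.3, 14.1 and 14.5 CPM in WT. Its log2 fold change was 1.18 (SE 0.08, edgeR adjusted p 3.39e-07), and the groups were far apart. Fst (chr13:114452290-114458951, minus strand), follistatin, which binds activin and neutralises it, was at 18.0, 18.7 and 19.3 CPM in SRF KO and at 8.53, 8.75 and 9.13 CPM in WT. It rose by 1.09 on the log2 scale (SE 0.08, edgeR adjusted p 6.80e-07). Per Fst count there were 1.01 ± 0.0450 Inhba counts in SRF KO against 0.898 ± 0.0473 in WT. Per Bmp4 count there were 0.593 ± 0.0334 Grem1 counts in SRF KO against 0.489 ± 0.0333 in WT.

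Nog, noggin, an antagonist of BMP2 and BMP4, was close to the detection limit, with 30, 17 and 21 counts in SRF KO and 8, 3 and 8 counts in WT. Its log2 fold change of 1.96 carries an SE of 0.36 (edgeR adjusted p 0.00116). Chrd, chordin, another BMP antagonist, did not pass (2.72 ± 0.296 CPM in SRF KO against 2.47 ± 0.294 CPM in WT; edgeR adjusted p 0.457). Bmp1 (chr14:70474558-70520234, minus strand), which in spite of its name is a protease that cleaves chordin and procollagens, was at 29.0, 24.2 and 30.1 CPM in SRF KO and at 14.4, 11.6 and 14.1 CPM in WT. It rose by 1.05 on the log2 scale (SE 0.10, edgeR adjusted p 1.02e-05), with replicate 2 the lowest library in both groups. Ltbp1, which tethers latent TGF-beta to the matrix, rose by 0.58 (edgeR adjusted p 4.38e-05).

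**Figure D3:**
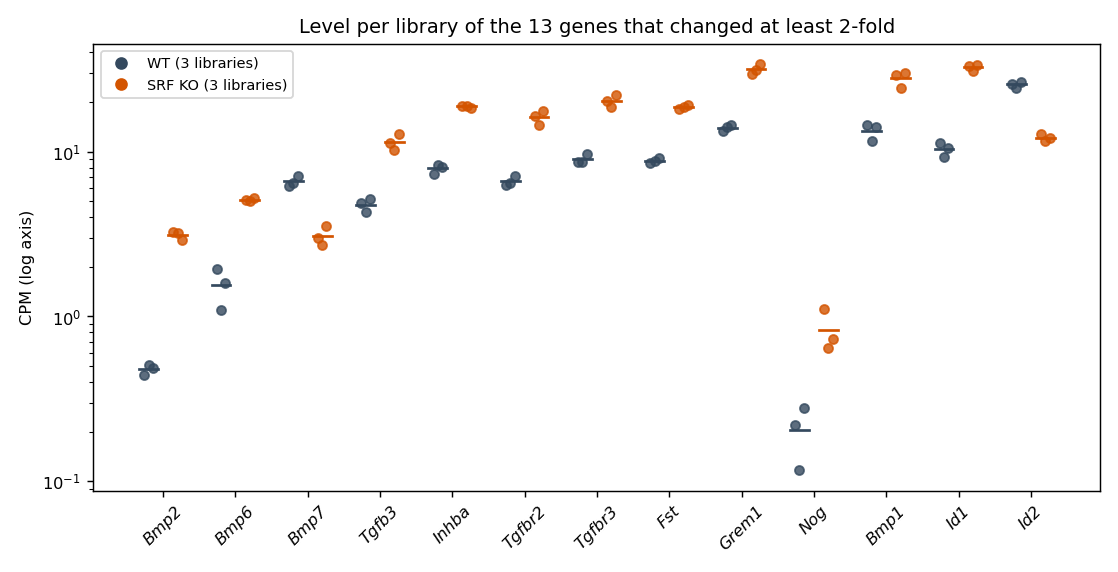
CPM (log axis) of the 13 members that changed at least 2-fold, for each of 3 WT and 3 SRF KO libraries; points are libraries and lines group means. The genes were chosen by this change, the groups are separate for each of them, and 52.7% of all genes tested had no overlap. Only Bmp7 and Id2 are lower in SRF KO.

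Of the 7 Smads, 1 rose, 1 fell and 5 did not pass, so that 28.6% were called against 42.4% of all genes. Smad6 (chr9:63953076-64022059, minus strand), an inhibitory Smad of the BMP branch and itself a BMP target, was at 3.79, 3.44 and 3.32 CPM in SRF KO and at 6.21, 4.47 and 7.74 CPM in WT. It fell by 0.81 on the log2 scale (SE 0.18, edgeR adjusted p 0.00326), the WT libraries were widely spread and WT replicate 2 was the lowest of them. Without WT replicate 2 its log2 fold change was -0.97, and without WT replicate 3 it was -0.63 (edgeR adjusted p 0.00691). The other inhibitory Smad, Smad7, was at 134 ± 4.79 CPM in SRF KO against 132 ± 12.4 CPM in WT, a log2 fold change of 0.02 (edgeR adjusted p 0.873). Smad4, the common partner, was at 73.6, 79.4 and 76.1 CPM in SRF KO and at 67.5, 67.3 and 70.5 CPM in WT, with a log2 difference of 0.16 (SE 0.05, edgeR adjusted p 0.0273). That call was lost without SRF KO replicate 2 (0.14, adjusted p 0.0912), SRF KO replicate 3 (0.16, 0.0814) or WT replicate 1 (0.15, 0.0948). The receptor-regulated Smad1, Smad2, Smad3 and Smad5 did not pass, with log2 fold changes between 0.02 and 0.16. Summed over the 7 Smads, the length-scaled level was 77.7 ± 0.965 CPM per kb in SRF KO against 74.4 ± 3.72 in WT.

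The Id genes, which encode helix-loop-helix proteins that bind E proteins and keep them from DNA, split. Id1 (chr2:152736251-152737410, plus strand) was at 33.1, 30.7 and 33.4 CPM in SRF KO and at 11.3, 9.25 and 10.5 CPM in WT. All SRF KO libraries were about the same and above every WT library, with a log2 difference of 1.64 (SE 0.08, edgeR adjusted p 5.29e-08), which is 3.11-fold. Id2 (chr12:25093799-25097140, minus strand) was at 12.8, 11.5 and 12.1 CPM in SRF KO and at 25.8, 24.4 and 26.5 CPM in WT. It fell by 1.07 on the log2 scale (SE 0.07, edgeR adjusted p 6.17e-07), which is 2.11-fold lower, without overlap. Within each library the ratio of Id1 to Id2 counts was 2.59, 2.67 and 2.75 in SRF KO and 0.440, 0.379 and 0.397 in WT, a contrast that no library scaling affects.

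Id3 was at 28.1, 22.8 and 26.4 CPM in SRF KO and at 23.3, 16.8 and 26.4 CPM in WT. The groups overlapped, replicate 2 was the lowest library in both, and the log2 fold change of 0.21 did not pass (SE 0.14, edgeR adjusted p 0.236). The value rests on single WT libraries, since Id3 passed without WT replicate 3 (0.35, edgeR adjusted p 0.0415) and was at 0.06 without WT replicate 2 (edgeR adjusted p 0.561). Id4, which is best known from neural precursors, was at 4.24, 4.53 and 4.53 CPM in SRF KO and at 5.25, 5.33 and 5.96 CPM in WT, a log2 difference of -0.31 (SE 0.11, edgeR adjusted p 0.0366). That call was lost without any of SRF KO replicates 1 to 3, WT replicate 1 or WT replicate 3 (between -0.35 and -0.25, adjusted p up to 0.130) under DESeq2 (-0.30, adjusted p 0.124) and when scaled by library totals (-0.28, adjusted p 0.0657). Per kb of exon, Id3 (12.4 ± 2.72), Id2 (10.5 ± 0.441) and Id1 (8.95 ± 0.911) lay near each other in WT, and Id3 and Id2 did not differ beyond their spread. In SRF KO the order was Id1 (27.9 ± 1.26), Id3 (14.4 ± 1.5) and Id2 (4.98 ± 0.259 CPM per kb), each apart from the next. Id1 held 57.7% ± 1.16 of the summed length-scaled Id level in SRF KO against 27.0% ± 1.69 in WT.

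The members were then placed among all genes. They ranged from a mean of 14.5 counts for Nog to 3844 for Smad7 over the 6 libraries, and 14 of the 39 had an absolute log2 fold change under 0.2. Exons of 14 members overlap those of another gene in GENCODE M21, mostly on the opposite strand. For the members tested the largest overlap with 1 partner was 8.74% of the exon length, in Bmp8b, and the largest sum over partners was 12.4%, in Tgfb3. Whether counting used strand is not given in the sources used here, so reads of such partners cannot be told apart.

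**Figure D4:**
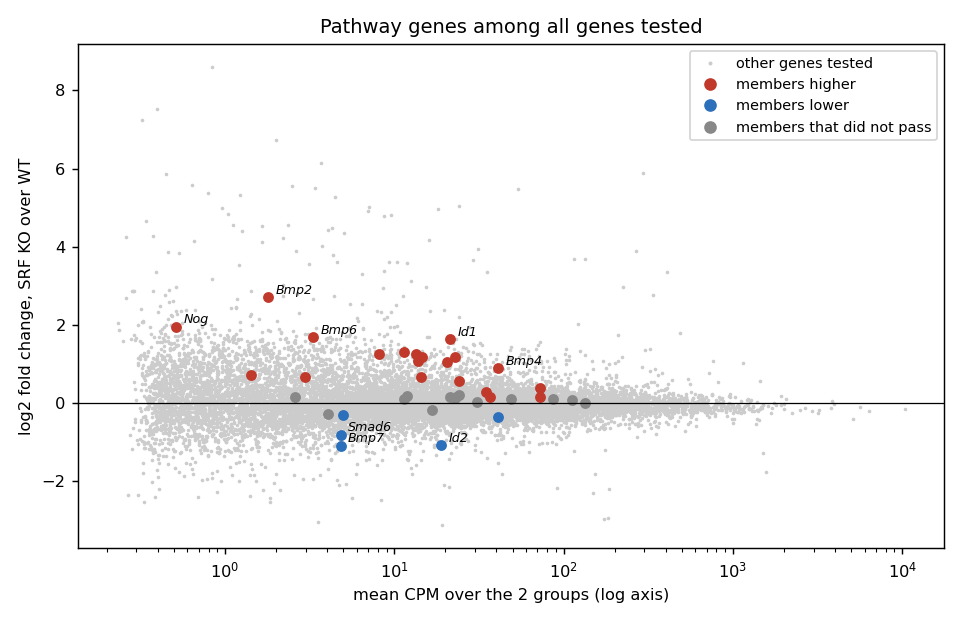
Log2 fold change of SRF KO over WT (y axis) against mean CPM (log axis) for all genes tested (grey) and the 39 members (coloured by call), with 8 members named. Members of high level lie close to 0, and Bmp2 at 2.71 lies within the cloud of large rises among low-level genes.

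Fibroblast and extraembryonic endoderm markers were higher in SRF KO as well. The 16 fibroblast markers had log2 fold changes between 0.68 and 1.49 with a median of 1.09, and 15 of them were called higher. Of the 20 members that rose, 9 had fold changes within that range, namely Bmp4, Tgfb3, Inhba, Bmpr1b, Tgfbr2, Tgfbr3, Fst, Grem1 and Bmp1. Bmpr1b, at 0.71, was within that range only through Fap at 0.68, which was not called, as the next marker was Postn at 0.81. A further 7 members lay below the range, and 4, Bmp2, Bmp6, Nog and Id1, lay above it, Nog with the limit on its filter given above. The 15 extraembryonic endoderm markers, all called higher, had log2 fold changes between 1.38 and 5.88 with a median of 3.62. Of these, Hnf4a and Foxa2 passed the filter on low counts only through the SRF KO libraries. The lowest value was that of Lamb1 alone, and the next lowest, Lama1 at 2.76, lay above all 4 of those members. Bmp2, at 2.71, was the highest of the 4, so that they lay within the range only through Lamb1. In both groups the fibroblast sum was highest in replicate 3 and lowest in replicate 2, and 7 of the 39 members had this order in both groups (17.9%), against 9.57% of all genes tested. They were Tgfb1, Tgfb3, Acvr1, Tgfbr3, Bambi, Ltbp1 and Smad7, of which Acvr1, Bambi and Smad7 were not called. This order of libraries is not particular to the fibroblast markers, since the second principal component had it too. That component was at 2.54, 2.50 and -5.93 in SRF KO replicates 3, 1 and 2. In WT replicates 3, 1 and 2 it was at 10.3, 5.58 and -15.0. The part of fibroblast-like or endoderm-like cells in the rises of the 20 members was not tested. Of the other marker lists, mesoderm had 2 of 7 tested genes higher and 1 lower, and trophoblast 1 of 6 higher and 2 lower. Endothelium had 1 of 3 higher and 2 lower. These are 42.9%, 50% and 100% called, where 42.4% of all genes were called. Foxf1 in mesoderm and Cdh5 in endothelium, both counted as higher, passed the filter on low counts only through the SRF KO libraries. The single marker genes named here were picked after their values were seen.

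Another 81 genes of the pathway that are not among the 40 were read from the same fit. Of these 65 were tested, 26 were higher and 8 lower (52.3% called, against 42.4% of all genes), with a median log2 fold change of 0.16. The other extracellular regulators made up most of the rises, with 15 of 19 higher, 1 lower and a median of 0.98. Bmper, a secreted modulator that binds BMPs, was at 14.9 ± 1.21 CPM in SRF KO against 3.21 ± 0.510 CPM in WT, or 2.19 on the log2 scale (SE 0.12, edgeR adjusted p 8.26e-08). Fbn1 and Ltbp2, matrix proteins of microfibrils that are abundant in fibroblasts, rose by 1.38 and 1.33 (edgeR adjusted p 5.52e-08 and 1.10e-06). Twsg1, which acts with chordin, fell by 0.34 (edgeR adjusted p 0.000316).

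Of the other intracellular regulators, 2 of 21 were higher and 5 lower, with a median of -0.08. Tob1, an antiproliferative protein that can bind Smads, and Skil, a repressor of Smad-driven transcription, fell by 0.47 and 0.36 on the log2 scale (edgeR adjusted p 6.14e-05 and 0.000618). Among other target genes 5 of 8 were higher and 1 was lower, with a median of 0.65. Among other ligands 3 of 10 were higher, and among other receptors and co-receptors 1 of 7 was higher and 1 lower. Over all genes, 21.2% were higher and 21.3% lower. Msx1, among the 5 target genes, and Gdf6, among the 3 ligands, passed the filter on low counts only through the SRF KO libraries. Both are also among the 26 rises of other pathway genes given above. Of the target genes, Ctgf fell by 0.33 on the log2 scale (edgeR adjusted p 0.00106). Pmepa1, a negative regulator of TGF-beta signalling and itself a target, rose by 0.81 (edgeR adjusted p 1.14e-05). Ctgf, Pmepa1, Bmp8a, Msx1 and Gdf6 were named after their values were seen.

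**Figure D5:**
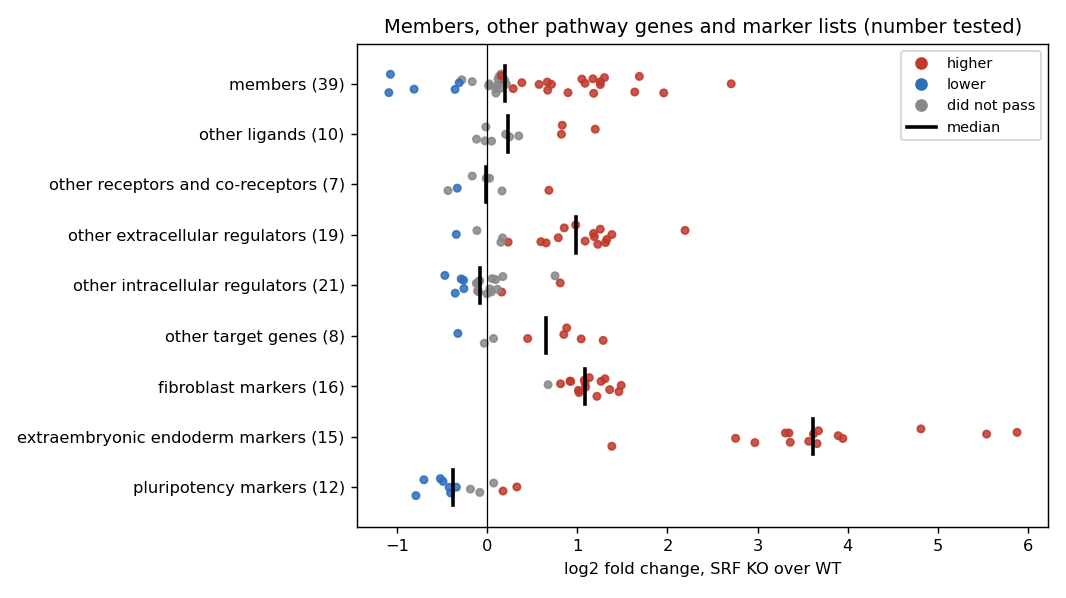
Log2 fold change of SRF KO over WT (x axis) for the members, 5 groups of other pathway genes and 3 marker lists, with the number tested in brackets; points are genes coloured by call and black lines are medians. Medians are 0.98 for other extracellular regulators, 1.09 for fibroblast markers and -0.08 for other intracellular regulators. The extracellular list itself holds genes that are abundant in fibroblasts, such as Fbn1 and Ltbp2.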

How the data were processed

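The deposited table holds whole-number read counts per gene and per transposable element subfamily, without normalization by the authors, judged from its values. Per the labels' protocols, paired 150 bp reads were cleared of adaptor, low-quality and empty reads, and the submitters' processing notes name the build mm10 and DESeq2. The aligner, counting program, annotation and strand setting are not given in the sources used here. Columns were matched to samples by name.

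One model covered all entries, fitted with edgeR 4.0.16 in R 4.3.3 (filterByExpr with a minimum count of 10, TMM scaling, quasi-likelihood test, Benjamini-Hochberg adjustment over every gene and subfamily tested, threshold 0.05). The replicate number was not a term. Where a count is 0, up to 3 counts are allowed, which is between 0.0828 and 0.117 CPM, and this covers counting error only. Alternatives were DESeq2 1.42.0, limma-voom (limma 3.58.1), other scalings, no filter, gene entries only, stricter thresholds, leaving out each library and a replicate block. Replicate pairs differed by a chi-square per degree of freedom between 1.79 and 14.6, so each library counts as 1 replicate. Positions and exon lengths come from GENCODE M21 (GRCm38), and promoter windows from RefSeq (GRCm38.p6). The fit was tested on simulated data.

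The members, gene lists and naming rule were chosen with earlier results of these data known. Members past the threshold with a log2 fold change of at least 1 in size, and those with the smallest p of each role, are given per library. Of other pathway genes whose mean count was 50 or more, the 3 largest rises and 3 largest falls past the threshold are named.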

Additional observations from a re-analysis of the deposited data

How the results depend on the processing

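The counts of 20 members higher and 5 lower stayed within 1.5 times under every alternative except the 2-fold requirement, which gave 11 and 2, with 12 and 0 of the other pathway genes and 817 and 260 of all genes, fewer by construction. At an adjusted p under 0.01, 2013 genes were lower. When each of the 6 libraries was left out in turn, members higher were between 18 and 23 and members lower between 4 and 7. Over all genes in the same fits, between 2457 and 3652 were higher and between 2274 and 3809 lower. The member counts and the all-gene counts were both highest without WT replicate 2. The members' median log2 fold change was between 0.18 and 0.25, the last without SRF KO replicate 2. The cause was not tested. Srf was between -3.23 and -2.98. Over the members, 536 comparisons with an alternative kept direction and call, 32 were weaker, 14 stronger and 3 changed sign. Those 3 were of Smad3 and Smad7, which passed the test in none of the fits: with a library left out, Smad3 was between -0.025 (without SRF KO replicate 3) and 0.076, and Smad7 between -0.052 (without WT replicate 2) and 0.068, and at -0.0039 without SRF KO replicate 3; the cause was not tested. Apart from the stricter thresholds, only Tgfbr1, Smad4 and Id4 lost a call. Without WT replicate 2, Bmp8b (-0.32), Bmpr1a (0.15), Acvr2b (-0.20), Smad1 (0.17) and Smad2 (0.11) passed, as did Acvr1 (0.25) without SRF KO replicate 2. Scaling by library totals moved the median of all genes by 0.0368, and Acvr1 (0.23), Smad1 (0.20), Smad2 (0.13) and Smad5 (0.14) then passed.

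Replicate numbers were not taken as a pairing: deviations from the group means correlated by 0.0574, 0.383 and 0.236 between libraries of the same number, and SRF KO replicate 1 correlated best with WT replicate 3 (0.276). With a replicate block, 23 members were higher and 5 lower, adding Acvr1 (0.19), Smad1 (0.16) and Id3 (0.23). Over all genes, 3659 were then higher and 3853 lower, against 3132 and 3141 in the main fit. Depth limits Nog and Bmp5, and the WT values of Bmp2.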
